A study of Mus musculus with 24 samples.

Results

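Wnt ligands, their receptors and the feedback genes of the pathway were followed across 4 derivatives of EO771, a mouse mammary carcinoma cell line. The 50 genes were chosen by their membership of the pathway and by the near loss of Rnf43 from cells with CCR7, which was known from these same libraries. They are 50 of the 55471 genes counted in batch 1. Of the 50, 27 had a row among the 13915 genes of the batch 2 table and 23 did not, and the latter count here as not detected in batch 2.

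The libraries were made from polyadenylated RNA, 24 in all, 4 per derivative and batch. X2 cells carried a control vector. Cells with CCR7 had been transduced with a pLNCX2 retrovirus carrying mouse Ccr7 cDNA with the reporter tdTomato, then sorted for both products. The study also detected tdTomato in X2 and controlled its level across derivatives, and G418 served for selection. The cells with CCR7 were then sorted by podoplanin (PDPN), a surface glycoprotein that some of the cells had gained spontaneously. Those with PDPN are the CCR7-PDPN cells. Those without it are the CCR7 cells, which the file headers name as PDPN minus. X2-PDPN cells had been sorted for PDPN from X2. All derivatives share the EO771 background, in RPMI-1640 culture, and all are sorted pools with no clonal selection, so a pool can hold cells without the marker. X2 and CCR7-PDPN were sequenced in both batches. CCR7 cells have libraries in batch 1 only and X2-PDPN cells in batch 2 only. The 4 libraries of a group were technical replicates of 1 cell population, so p-values measure only the spread between those libraries.

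Wnt proteins are secreted lipid-modified ligands that bind Frizzled receptors together with the co-receptors Lrp5 or Lrp6. In the canonical branch this stops a destruction complex built on Axin and Apc from marking beta-catenin (Ctnnb1) for degradation, and beta-catenin then acts in the nucleus with TCF/LEF factors. Rnf43 and Znrf3 are membrane ubiquitin ligases that remove Frizzled receptors from the surface, and R-spondins bound to Lgr receptors take these ligases away. Rnf43, Axin2 and Nkd1 are themselves classical targets of the pathway and act as its brakes, and in the mammary gland Wnt signals are known for their part in stem cells and duct growth.

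Promoters are shown, since Rnf43 and 2 ligands, Wnt6 and Wnt11, had their lowest group mean of each batch in CCR7-PDPN. Wnt11 was near the floor and not lost with CCR7 alone, with 17 summed counts in CCR7 and 20 in X2 of batch 1. They come from RefSeq (GRCm38.p6) and run from 250 bases before a start site through its first 50 bases. Capitals mark the 6 letters CTTTGA or their reverse complement TCAAAG, a core that TCF/LEF factors recognise. RefSeq gives 2 starts of Rnf43, both on the plus strand (chr11:87662837-87663136 and chr11:87699647-87699946), with Wnt6 on the plus strand (chr1:74771642-74771941) and the first start of Wnt11 on the plus strand (chr7:98834862-98835161).
Rnf43, first start: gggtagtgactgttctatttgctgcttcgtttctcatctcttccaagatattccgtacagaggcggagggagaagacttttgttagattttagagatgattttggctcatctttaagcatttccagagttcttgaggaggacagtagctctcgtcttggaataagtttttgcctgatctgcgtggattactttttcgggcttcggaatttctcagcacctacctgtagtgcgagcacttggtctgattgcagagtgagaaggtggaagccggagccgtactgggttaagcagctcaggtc
Rnf43, second start: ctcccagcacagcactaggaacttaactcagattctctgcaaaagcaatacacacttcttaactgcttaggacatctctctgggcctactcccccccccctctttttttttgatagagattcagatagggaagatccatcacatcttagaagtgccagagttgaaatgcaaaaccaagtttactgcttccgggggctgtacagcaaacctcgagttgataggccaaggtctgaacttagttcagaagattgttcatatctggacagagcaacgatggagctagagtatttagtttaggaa
Wnt6: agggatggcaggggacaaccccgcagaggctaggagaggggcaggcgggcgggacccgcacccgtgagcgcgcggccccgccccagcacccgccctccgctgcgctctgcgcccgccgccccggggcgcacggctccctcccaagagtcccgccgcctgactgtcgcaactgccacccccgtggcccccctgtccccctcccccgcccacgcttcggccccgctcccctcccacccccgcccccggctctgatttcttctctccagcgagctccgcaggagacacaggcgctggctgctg
Wnt11: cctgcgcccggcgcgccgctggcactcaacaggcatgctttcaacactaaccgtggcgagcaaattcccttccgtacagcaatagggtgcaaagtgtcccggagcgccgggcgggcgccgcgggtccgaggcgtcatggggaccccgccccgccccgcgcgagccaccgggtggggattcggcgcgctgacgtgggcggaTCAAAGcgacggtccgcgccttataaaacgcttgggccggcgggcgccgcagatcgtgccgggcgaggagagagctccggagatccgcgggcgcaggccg
The letters occur once in the first Wnt11 window, beginning 50 bases before the start, and in neither window of Rnf43 nor in that of Wnt6. A second start of Wnt11 (chr7:98838595-98838894), not printed, has no match. Of the 50 genes 32 had a promoter in the table, 42 windows in all, and 6 of these (14.3%) held the letters, against 16.0% of all 32851 windows. No entry was found for Wnt7b, Wnt10a or Znrf3.

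Levels between genes are compared in TPM, which scales counts by depth and divides them by exonic length. The 27 genes with values in both batches spanned 0.307 to 381 TPM, as the plot of group levels shows. Ctnnb1 was highest, with a mean of 381 TPM over the 24 libraries, and it led in each group. Next by these means were the ligand Wnt7b (137 TPM), Axin1 (126 TPM), the receptor Ryk (102 TPM) and Wls (90.7 TPM), the carrier that takes Wnt ligands to the cell surface. Their order differed between groups, with Axin1 above Wnt7b in X2 and CCR7 and Wls above Ryk in X2. Of the ligands, Wnt10b had 51.6 TPM and Wnt9a 6.05 TPM, and Wnt11 was lowest of all 27 at 0.307 TPM. The Lrp co-receptors stood at 62.8 TPM (Lrp5) and 54.2 TPM (Lrp6), above the 2 Frizzled genes with values in both batches, Fzd2 (11.5 TPM) and Fzd5 (8.63 TPM). Among the ligases Znrf3 had 34.7 TPM. Of the TCF/LEF genes Tcf7l1 had the highest mean (26.7 TPM), with 50.3 TPM in CCR7, while in X2-PDPN Tcf7 was higher (29.05 TPM against 24.03 TPM). Nkd1 was the only one of 7 inhibitors with a batch 2 row (0.834 TPM).

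**Figure D1:**
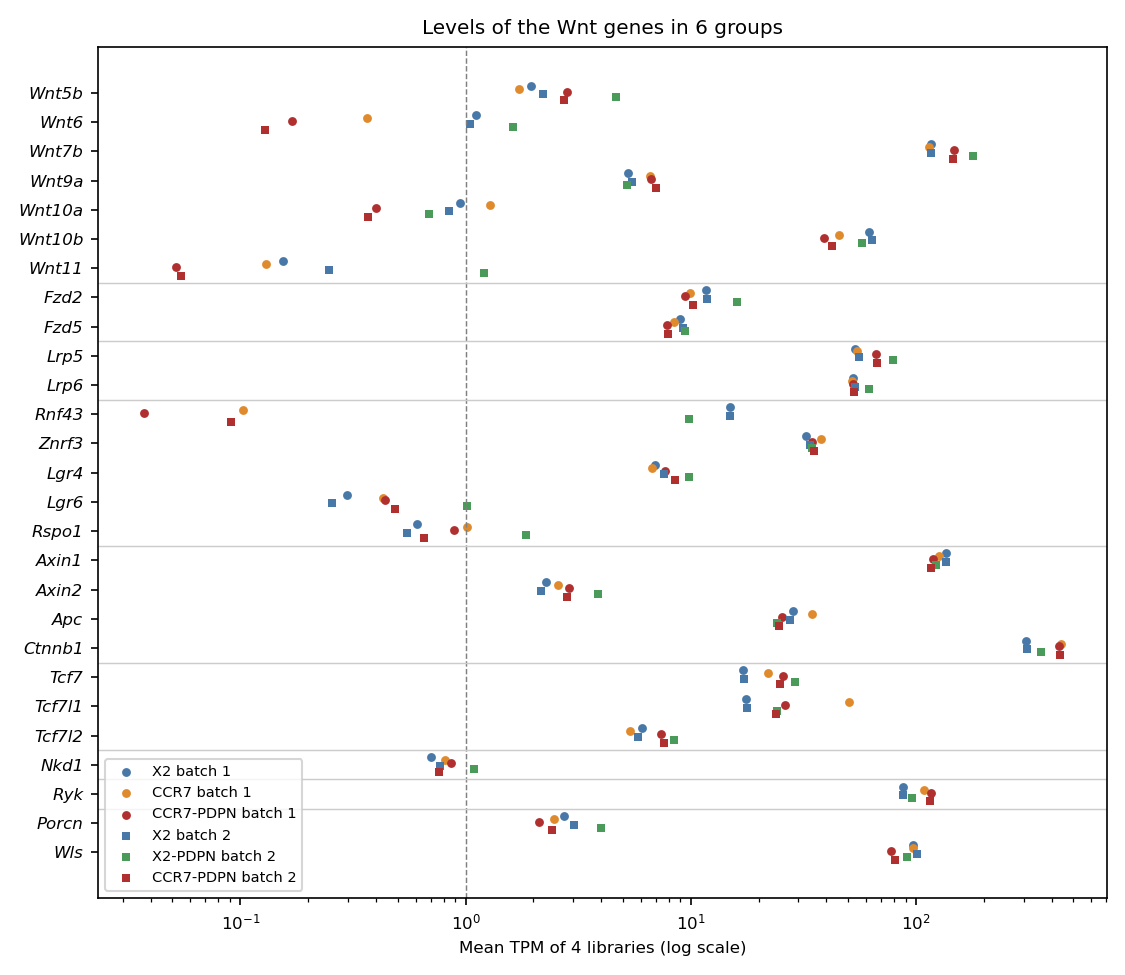
Mean TPM of 4 libraries (log scale) of each of the 27 Wnt genes in the 6 groups, ordered by role with grey lines between roles, circles for batch 1 and squares for batch 2. The dashed line is 1 TPM, and Rnf43 lies at 14.9 TPM in both X2 groups, 9.79 TPM in X2-PDPN and at most 0.103 TPM in the 3 groups with CCR7.

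The 23 genes without a batch 2 row were near or at 0 in batch 1 as well, with 13 of them at 0 counts in all 12 libraries. They were the ligands Wnt2, Wnt4, Wnt5a and Wnt7a, the receptors Fzd1, Fzd3, Fzd4, Fzd6, Fzd7, Fzd8 and Fzd9, Lgr5, Rspo2 and Rspo3, the factor Lef1, the inhibitors Dkk1, Dkk2, Dkk3, Sfrp1, Sfrp2 and Nkd2, and the receptors Ror1 and Ror2. The other 10 had at least 1 count, and the highest value was 8 counts, in 1 library, for Wnt4. A count of 0 allows up to 3 counts in a library, and this limit covers counting error only. Total counts per library ran from 22275468 to 33395418 (batch 1) and from 22788542 to 35721027 (batch 2).

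The labels were checked against marker genes. Ccr7 had 5311 ± 140 TPM in CCR7 cells and 0.653 ± 0.291 TPM in X2 of batch 1 (SD, n = 4), and Pdpn had 52.9 ± 0.2615 TPM in X2-PDPN and 0.330 ± 0.161 TPM in X2 of batch 2. Of the carcinoma markers Krt8 (415 to 575 TPM) and Vim (1762 to 2382 TPM) were high in every library, while Krt18, Epcam and Cdh1 reached at most 0.732 TPM, so an epithelial identity rests on Krt8 alone. Among 4 immune markers Cd3e was at 0, Ptprc and Adgre1 reached at most 0.07865 TPM in batch 1, and only Cd68, a lysosomal protein, had a level, which made up nearly all of the sum. That sum was 131 to 156 TPM in X2, 56.95 to 69.2 TPM in X2-PDPN, 42.1 to 57.6 TPM in CCR7 and 22.5 to 32.1 TPM in CCR7-PDPN over both batches. The 3 myoepithelial markers rest on Acta2, smooth muscle actin, with Krt5 and Krt14 at most 0.222 TPM in batch 1. Their sum was 101 to 105 TPM in X2-PDPN, 55.0 to 61.0 TPM in X2, 45.1 to 54.7 TPM in CCR7 and 22.9 to 25.4 TPM in CCR7-PDPN. The 4 fibroblast markers summed to between 93.8 and 123 TPM in all groups, from Pdgfra and Pdgfrb with Lum at 0 and Dcn at most 0.0609 TPM. The 5 endothelial markers summed to at most 1.405 TPM and the 2 adipocyte markers to at most 0.213 TPM. In bulk RNA fewer cells of a type and less RNA per cell cannot be told apart.

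A gene was called where edgeR's quasi-likelihood test gave a Benjamini-Hochberg adjusted p under 0.05 over all genes tested in the batch and the log2 fold change was above 1 in size, the study's own threshold. In batch 1 26 of the Wnt genes were tested and in batch 2 27, and Wnt11 passed the filter on low counts in batch 2 only. The numbers called were 3 of 26 for CCR7 against X2 (6.48% of all genes), 2 of 26 for CCR7-PDPN against CCR7 (3.27%), 3 of 26 and 4 of 27 for CCR7-PDPN against X2 in batches 1 and 2 (9.45% and 9.63%), 4 of 27 for X2-PDPN against X2 (5.05%) and 5 of 27 for CCR7-PDPN against X2-PDPN (9.16%). Rnf43 is among those counted in each comparison except X2-PDPN against X2, and in the 4 that set cells with CCR7 against cells without it, it is there by the choice of the genes. In CCR7-PDPN against CCR7 Rnf43 passed the low count filter through X2, which is outside that comparison, so this call is a description. Wnt11 is among those counted in the 3 comparisons of batch 2, where it was kept by the low count filter through X2-PDPN, the group in which it was high, so its calls are a description. Wnt6 is among those counted in the 4 comparisons of cells with CCR7 against cells without it. The filter kept it through the groups without CCR7, in which it was high, so these calls are a description too. In all 8 genes were called at least once, 5 of them with a mean level under 1 TPM over the libraries.

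**Figure D2:**
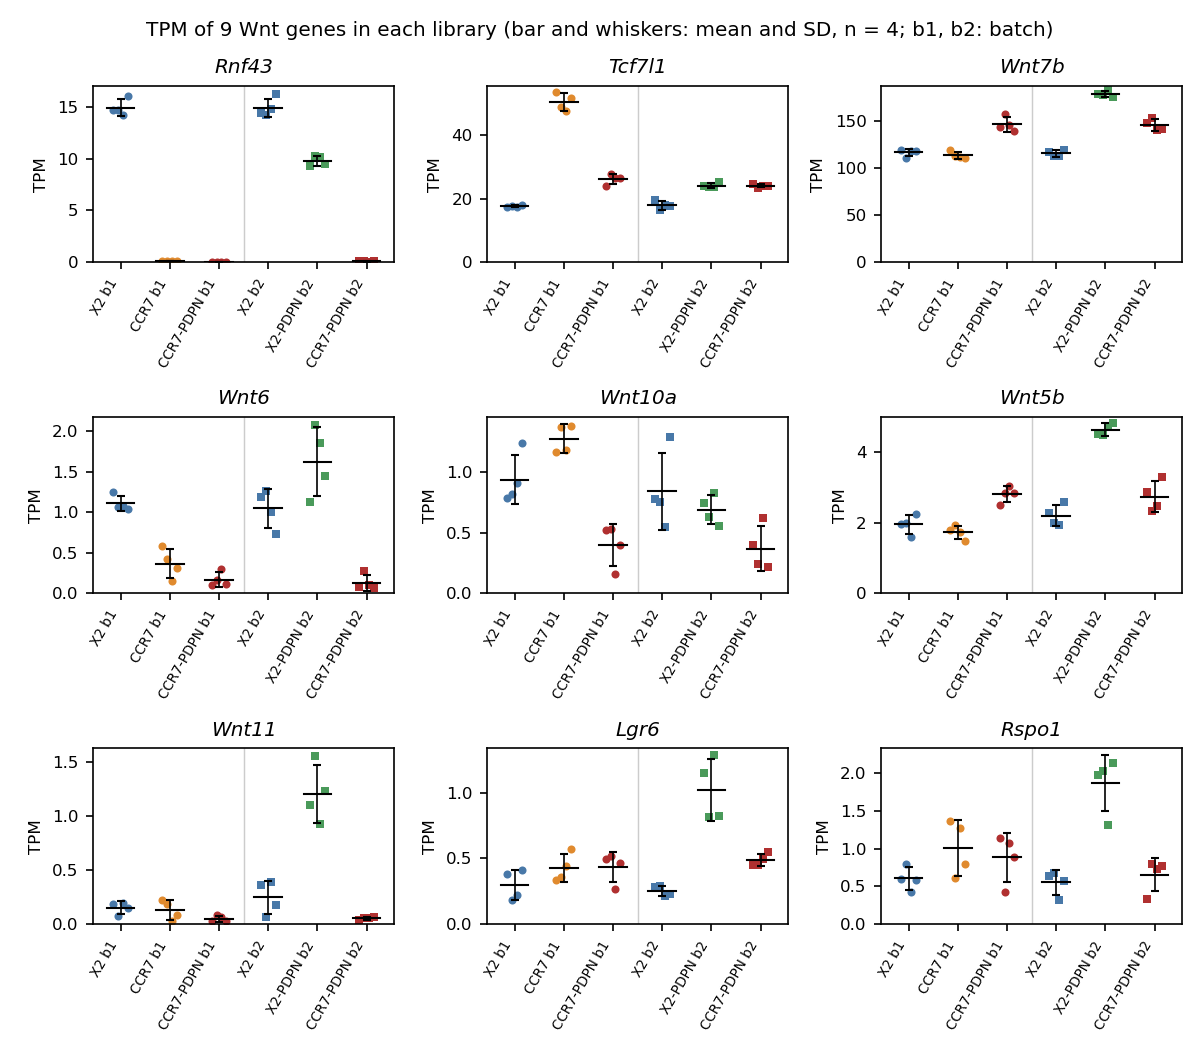
TPM in each of the 24 libraries for Rnf43, Wnt7b and the 7 other genes called at least once (Tcf7l1, Wnt6, Wnt10a, Wnt5b, Wnt11, Lgr6, Rspo1), with the mean and SD of 4 libraries per group. Rnf43 and Wnt6 were low in the 3 groups with CCR7, Tcf7l1 was highest in CCR7, and Wnt7b, Wnt5b, Wnt11, Lgr6 and Rspo1 were highest in X2-PDPN.

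Rnf43 (ENSMUSG00000034177, GRCm38 chromosome 11, 87662722 to 87735539, plus strand), the ligase that takes Frizzled receptors off the membrane, had 740, 619, 789 and 828 counts in the X2 libraries of batch 1. The CCR7 libraries had 6, 5, 6 and 4 counts and the CCR7-PDPN libraries of batch 1 had 1, 3, 2 and 2. In batch 2 the counts were 688, 705, 787 and 865 in X2, 493, 653, 522 and 450 in X2-PDPN, and 4, 6, 3 and 5 in CCR7-PDPN. No library with CCR7 came near a library without it. Corrected for library totals, the summed counts in CCR7 were 0.680% of those in X2 (95% exact counting interval 0.421% to 1.04%). For CCR7-PDPN the share of X2 was 0.248% (0.107% to 0.489%) in batch 1 and 0.600% (0.355% to 0.949%) in batch 2, and the share of X2-PDPN was 0.921% (0.545% to 1.46%). These 4 comparisons are those the gene was chosen for and are given as a description. The immune marker sum, nearly all of it Cd68, was likewise below X2 in the groups with CCR7, and in X2-PDPN too, and its part in this difference was not tested, with Ptprc, Cd3e and Adgre1 at or near 0 in batch 1.

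The comparisons of X2-PDPN with X2 and of CCR7-PDPN with CCR7 were not part of that choice. Rnf43 in X2-PDPN was 65.1% of its level in X2 (counting interval 61.6% to 68.9%), which is -0.61 in log2 units (standard error 0.06, adjusted p = 6.6e-13, edgeR), without overlap between the libraries. Between CCR7-PDPN and CCR7 it was 36.5% (14.0% to 85.7%), or -1.39 in log2 units (standard error 0.43, adjusted p = 0.029, edgeR). Here each library held 6 counts or fewer, and the adjusted p (edgeR) was 0.051 without replicate 3 of CCR7, 0.096 without replicate 1 of CCR7-PDPN and 0.054 with no filter on low counts. Rnf43 was kept by that filter through X2 and fell under it in a fit of CCR7-PDPN and CCR7 alone, so this call is a description. The mean was 0.103 TPM in CCR7 and 0.037 TPM in CCR7-PDPN of batch 1, while CCR7-PDPN of batch 2 had 0.091 TPM, near the CCR7 level. The PDPN difference with CCR7 (batch 1) minus that without CCR7 (batch 2) was -0.78 for Rnf43 (adjusted p = 0.25, edgeR), which did not pass the test.

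Genes around Rnf43 had no such difference in level. Within 5 Mb on either side 86 other genes were tested in batch 1, with a median log2 fold change of 0.04 between CCR7 and X2 and quartiles of -0.09 and 0.17. Supt4a, a transcription elongation factor gene 2013 bases away, had a log2 fold change of -0.06. Tspoap1, 25002 bases away, was higher at 1.41. The lowest of the 86 were Tbx4 (-2.18) and Slfn2 (-1.81). The plot of neighbouring genes shows Rnf43 alone at the bottom of its window.

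**Figure D3:**
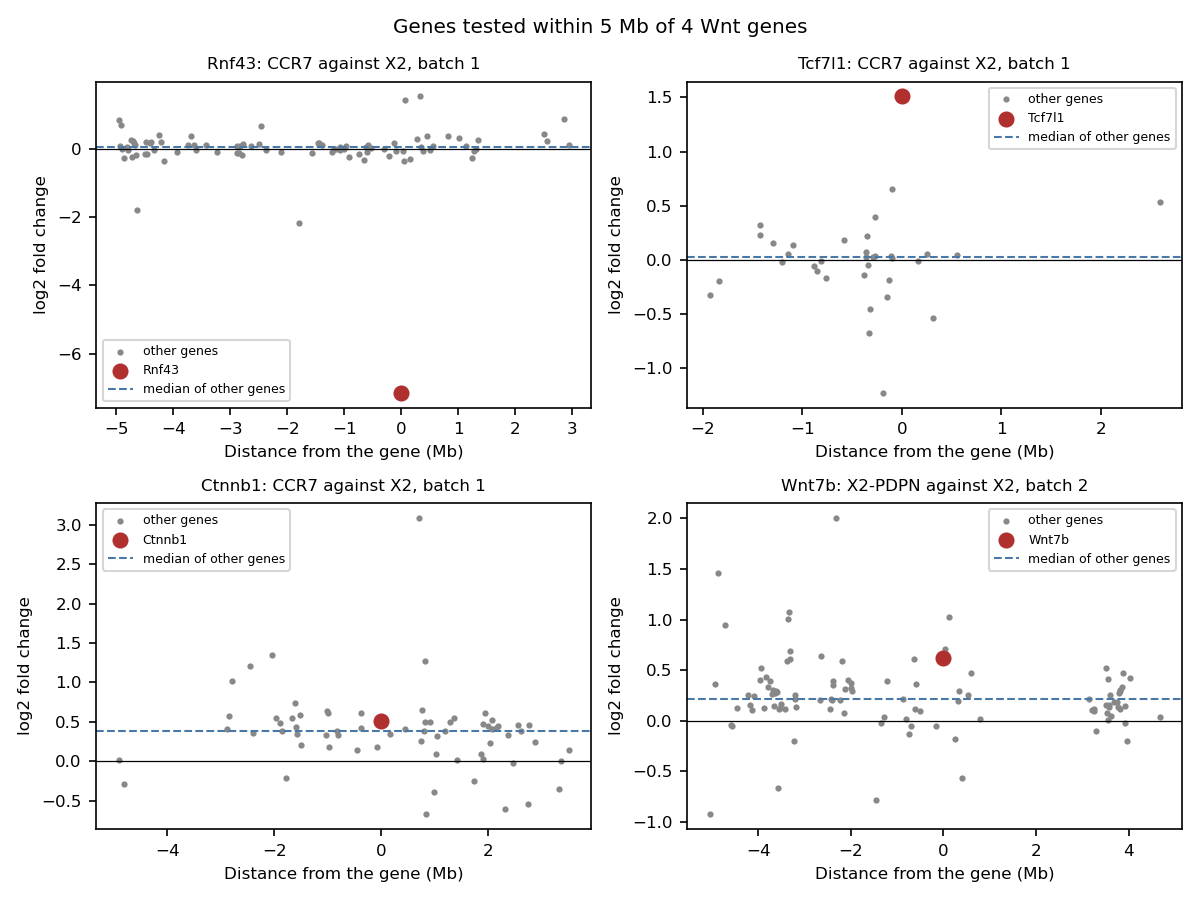
log2 fold change of every gene tested within 5 Mb of 4 Wnt genes against its distance in Mb, with the Wnt gene in red and the median of the other genes dashed. Rnf43 and Tcf7l1 (CCR7 against X2) lie outside the range of the other genes, Ctnnb1 (CCR7 against X2, 0.51) lies near its window median of 0.39, and Wnt7b (X2-PDPN against X2, 0.62) lies above a window median of 0.21.

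The paralog Znrf3, which shares the role of Rnf43, differed far less between the groups. Its group mean had 32.5 TPM (X2 of batch 1) as the lowest and 37.9 TPM (CCR7) as the highest. It rose by 0.22 in CCR7 against X2 (adjusted p = 5.1e-05, edgeR) and by 0.11 in CCR7-PDPN against X2 of batch 1 (adjusted p = 0.014), and the batch 2 value of 0.07 did not pass (adjusted p = 0.078, edgeR). In X2-PDPN against X2 the log2 fold change was 0.03 (95% interval -0.04 to 0.10).

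The R-spondin receptors and ligand of the same arm were highest in X2-PDPN, as was the Acta2 level given above, whose part was not tested. Lgr6 had 1.15, 0.815, 1.28 and 0.825 TPM there, against 0.281, 0.290, 0.215 and 0.233 TPM in X2 of batch 2 and 0.451, 0.451, 0.497 and 0.550 TPM in CCR7-PDPN of batch 2. The 3 groups did not overlap, and Lgr6 rose by 1.99 in X2-PDPN against X2 (standard error 0.22, adjusted p = 2.2e-10, edgeR) on the log2 scale. In batch 1 it had 0.380, 0.182, 0.225 and 0.409 TPM in X2, 0.337, 0.363, 0.444 and 0.572 TPM in CCR7, and 0.495, 0.519, 0.266 and 0.468 TPM in CCR7-PDPN, all overlapping. Its log2 fold change in CCR7-PDPN against X2-PDPN was -1.03 (adjusted p = 1.3e-05, edgeR), which fell short of 1 in size without replicate 2 of CCR7-PDPN (-0.99) or without replicates 1 or 3 of X2-PDPN (-0.96 and -0.91), and with the window median subtracted (-0.95).

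Rspo1, a secreted ligand of the Lgr receptors, had 1.97, 2.03, 1.31 and 2.13 TPM in X2-PDPN. It had 0.639, 0.683, 0.317 and 0.570 TPM in X2 and 0.335, 0.796, 0.728 and 0.764 TPM in CCR7-PDPN of the same batch, both below every X2-PDPN library. The log2 fold changes were 1.75 against X2 (standard error 0.29, adjusted p = 2.0e-06, edgeR) and, for CCR7-PDPN against X2-PDPN, -1.43 (standard error 0.28, adjusted p = 2.4e-05). In batch 1 Rspo1 had 0.604, 0.803, 0.428 and 0.591 TPM in X2, 1.37, 0.608, 1.28 and 0.791 TPM in CCR7, and 1.15, 0.428, 1.07 and 0.891 TPM in CCR7-PDPN, and these groups overlapped. Lgr4, the widely expressed receptor of the family, had 7.62 ± 1.15 TPM in X2 and 9.81 ± 0.467 TPM in X2-PDPN (SD, n = 4), a rise of 0.36 (adjusted p = 0.00013, edgeR).

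Of the ligands, Wnt7b (ENSMUSG00000022382, chromosome 15, 85535437 to 85582473, minus strand) carried most of the signal. It had 120, 111, 118 and 118 TPM in X2, 119, 114, 112 and 111 TPM in CCR7, and 144, 158, 146 and 140 TPM in CCR7-PDPN of batch 1. In batch 2 it had 118, 113, 113 and 120 TPM in X2, 179, 178, 184 and 176 TPM in X2-PDPN, and 148, 154, 140 and 142 TPM in CCR7-PDPN. Thus X2 and CCR7 overlapped. CCR7-PDPN lay above both in batch 1 and above X2 in batch 2, where X2-PDPN lay above X2 and CCR7-PDPN. In CCR7-PDPN Wnt7b rose by 0.39 over CCR7 (standard error 0.04, adjusted p = 6.3e-08, edgeR), and CCR7 against X2 gave -0.04 (standard error 0.04, adjusted p = 0.41). Against X2-PDPN it was lower in CCR7-PDPN, at -0.27 (adjusted p = 8.4e-11, edgeR). The 103 other genes within 5 Mb had medians of 0.21 in X2-PDPN against X2 and -0.15 in CCR7-PDPN against X2-PDPN, and their part in these differences was not tested.

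Wnt6 (ENSMUSG00000033227, chromosome 1, 74771892 to 74785322) was low where Rnf43 was low. It had 1.25, 1.06, 1.08 and 1.05 TPM in X2, 0.579, 0.418, 0.154 and 0.311 TPM in CCR7, and 0.107, 0.162, 0.297 and 0.113 TPM in CCR7-PDPN of batch 1. In batch 2 it had 1.19, 1.27, 1.01 and 0.728 TPM in X2, 1.12, 2.08, 1.86 and 1.45 TPM in X2-PDPN, and 0.0741, 0.271, 0.107 and 0.0614 TPM in CCR7-PDPN. Every library with CCR7 lay below every library without it. The log2 fold changes were -1.58 in CCR7 against X2 (standard error 0.33) and -2.66 and -2.87 in CCR7-PDPN against X2 in the 2 batches. Wnt6 passed the filter on low counts through X2 in batch 1 and through X2 and X2-PDPN in batch 2, where it was high. Its calls in cells with CCR7 against cells without it are therefore a description. The batch 1 values rest on 74 summed counts in X2, 25 in CCR7 and 12 in CCR7-PDPN. Corrected for totals, X2 of batch 2 had 7.78 times the counts of CCR7-PDPN (counting interval 3.88 to 17.7). In X2-PDPN Wnt6 rose by 0.65 over X2 (standard error 0.25, adjusted p = 0.028, edgeR), with overlapping libraries.

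Wnt10a, whose gene lies 6194 bases from Wnt6, followed another order. It had 0.791, 0.819, 0.912 and 1.24 TPM in X2, 1.17, 1.38, 1.19 and 1.38 TPM in CCR7, and 0.521, 0.528, 0.158 and 0.400 TPM in CCR7-PDPN of batch 1. Wnt10a fell by 1.60 in CCR7-PDPN relative to CCR7 (standard error 0.29, adjusted p = 0.00015, edgeR), without overlap. In batch 2 X2 had 0.780, 0.751, 0.548 and 1.29 TPM, X2-PDPN 0.750, 0.628, 0.826 and 0.559 TPM and CCR7-PDPN 0.395, 0.240, 0.619 and 0.218 TPM. Its log2 fold change in CCR7-PDPN against X2 was -1.18 in batch 1 and -1.16 in batch 2 (adjusted p = 0.0022 and 0.0047, edgeR). Without replicate 3 of CCR7-PDPN the batch 1 value was -0.93, and the batch 2 value was -0.86 without replicate 4 of X2 (adjusted p = 0.053, edgeR), and -0.98 without replicate 2 or replicate 4 of CCR7-PDPN.

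Wnt5b and Wnt11, ligands known mostly for signals outside the beta-catenin branch, stood out in X2-PDPN. Wnt5b had 4.51, 4.48, 4.75 and 4.83 TPM in X2-PDPN, 2.28, 2.00, 1.95 and 2.59 TPM in X2 and 2.88, 2.33, 2.48 and 3.30 TPM in CCR7-PDPN of batch 2. In batch 1 it had 1.96, 1.99, 1.61 and 2.25 TPM in X2, 1.78, 1.92, 1.74 and 1.48 TPM in CCR7, and 2.51, 2.86, 3.04 and 2.83 TPM in CCR7-PDPN. X2-PDPN lay above X2 and CCR7-PDPN above CCR7 without overlap, by 1.06 in X2-PDPN against X2 (standard error 0.14, adjusted p = 1.7e-08, edgeR; 0.9999 without replicate 3 of X2) and by 0.71 in CCR7-PDPN against CCR7 (standard error 0.15, adjusted p = 0.00092).

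Wnt11 had 37, 62, 30 and 37 counts in X2-PDPN, against 11, 2, 13 and 6 in X2 and 1, 2, 2 and 2 in CCR7-PDPN of batch 2. Every X2-PDPN library exceeded all others, and it passed the filter on low counts through this group. The summed counts in X2-PDPN were 4.86 times those in X2 (counting interval 3.31 to 7.33) and 21.9 times those in CCR7-PDPN (10.4 to 55.3). In batch 1 Wnt11 had 6, 2, 7 and 5 counts in X2, 8, 6, 1 and 2 in CCR7 and 1, 3, 2 and 1 in CCR7-PDPN and was not tested.

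Wnt10b and Wnt9a, a pair of moderate level, moved in opposite directions with CCR7. Wnt10b, a canonical ligand of the mammary gland, had 61.8 ± 2.22 TPM in X2 and 45.5 ± 5.53 TPM in CCR7 (SD, n = 4) and fell by 0.44 (adjusted p = 2.3e-05, edgeR), with log2 fold changes of -0.64 and -0.57 in CCR7-PDPN against X2. Wnt9a had 5.25 ± 0.266 and 6.60 ± 0.140 TPM and rose by 0.33 (adjusted p = 0.0025, edgeR).

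The highest gene of each receptor class was higher in X2-PDPN than in X2. Fzd2 went from 11.8 ± 0.614 to 16.0 ± 0.839 TPM, a rise of 0.43 (adjusted p = 2.3e-07, edgeR), and had 10.2 ± 0.714 TPM in CCR7-PDPN of batch 2. Lrp5 went from 55.5 ± 0.557 to 79.3 ± 1.53 TPM, a rise of 0.51 (adjusted p = 1.8e-19, edgeR), and it also rose by 0.31 from CCR7 to CCR7-PDPN (adjusted p = 2.3e-07). Lrp6 rose by 0.21 in X2-PDPN (adjusted p = 7.2e-08, edgeR) and Fzd5 had a log2 fold change of 0.01 (adjusted p = 0.87). Ryk, a receptor-like kinase that binds Wnt ligands, rose by 0.31 in CCR7 against X2 (adjusted p = 1.7e-08, edgeR), while the 74 other genes within 5 Mb of it had a median of 0.35. Its part apart from these neighbours was not tested.

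In the destruction complex and its substrate the changes were small. Ctnnb1, beta-catenin, had 309 ± 3.42 TPM in X2, 441 ± 12.2 TPM in CCR7 and 430 ± 4.89 TPM in CCR7-PDPN of batch 1 (SD, n = 4), without overlap between X2 and the others. It rose by 0.51 in CCR7 against X2 (standard error 0.03, adjusted p = 4.8e-13, edgeR). The other 68 genes tested within 5 Mb, on chromosome 9, had a median of 0.39 with quartiles of 0.17 and 0.52, and 73.5% of them lay below Ctnnb1. The part of this stretch in its rise was not tested. Axin2, a target gene and scaffold of the complex, rose by 0.83 in X2-PDPN against X2 (standard error 0.11, adjusted p = 7.3e-09, edgeR), from 2.16 ± 0.199 to 3.86 ± 0.397 TPM. It rose by 0.36 and 0.42 in CCR7-PDPN against X2 (adjusted p = 0.0053 and 0.0012, edgeR), and in CCR7 against X2 the value was 0.17 (adjusted p = 0.19, edgeR). Axin1 was lower than X2 in each derivative, at -0.11 in CCR7, -0.16 in X2-PDPN, and -0.17 and -0.20 in CCR7-PDPN of batches 1 and 2. All of these passed (adjusted p = 0.0094, 8.1e-06, 0.00017 and 6.3e-08, edgeR). Apc against X2 was -0.20 in X2-PDPN (adjusted p = 3.8e-05, edgeR) and -0.14 in CCR7-PDPN of batch 2 (adjusted p = 0.0014). In CCR7 it was higher by 0.28 (adjusted p = 0.037, edgeR), and CCR7-PDPN of batch 1 did not pass (-0.14, adjusted p = 0.24).

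Tcf7l1, a TCF factor known mainly as a repressor, was the TCF gene that differed most in CCR7 cells. It had 17.4, 17.5, 17.5 and 18.1 TPM in X2, 53.5, 48.7, 47.4 and 51.7 TPM in CCR7, and 24.04, 27.77, 26.46 and 26.52 TPM in CCR7-PDPN of batch 1. In batch 2 it had 19.6, 16.4, 17.8 and 17.5 TPM in X2, 23.8, 23.7, 23.5 and 25.1 TPM in X2-PDPN, and 24.6, 23.4, 24.1 and 23.8 TPM in CCR7-PDPN. CCR7 stood alone at the top, and X2-PDPN and CCR7-PDPN overlapped. Tcf7l1 rose by 1.51 in CCR7 against X2 (standard error 0.05, adjusted p = 7.7e-16, edgeR) and, in CCR7-PDPN against CCR7, fell by 0.92 (standard error 0.05, adjusted p = 9.0e-12). All 34 other genes tested within 5 Mb lay below it in the first comparison, with a median of 0.02. Tcf7 rose in each derivative against X2, by 0.37 in CCR7, 0.75 in X2-PDPN and 0.60 and 0.56 in CCR7-PDPN (adjusted p = 0.00016, 4.6e-16, 1.3e-07 and 6.0e-12, edgeR), comparisons that share X2 libraries within a batch.

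**Figure D4:**
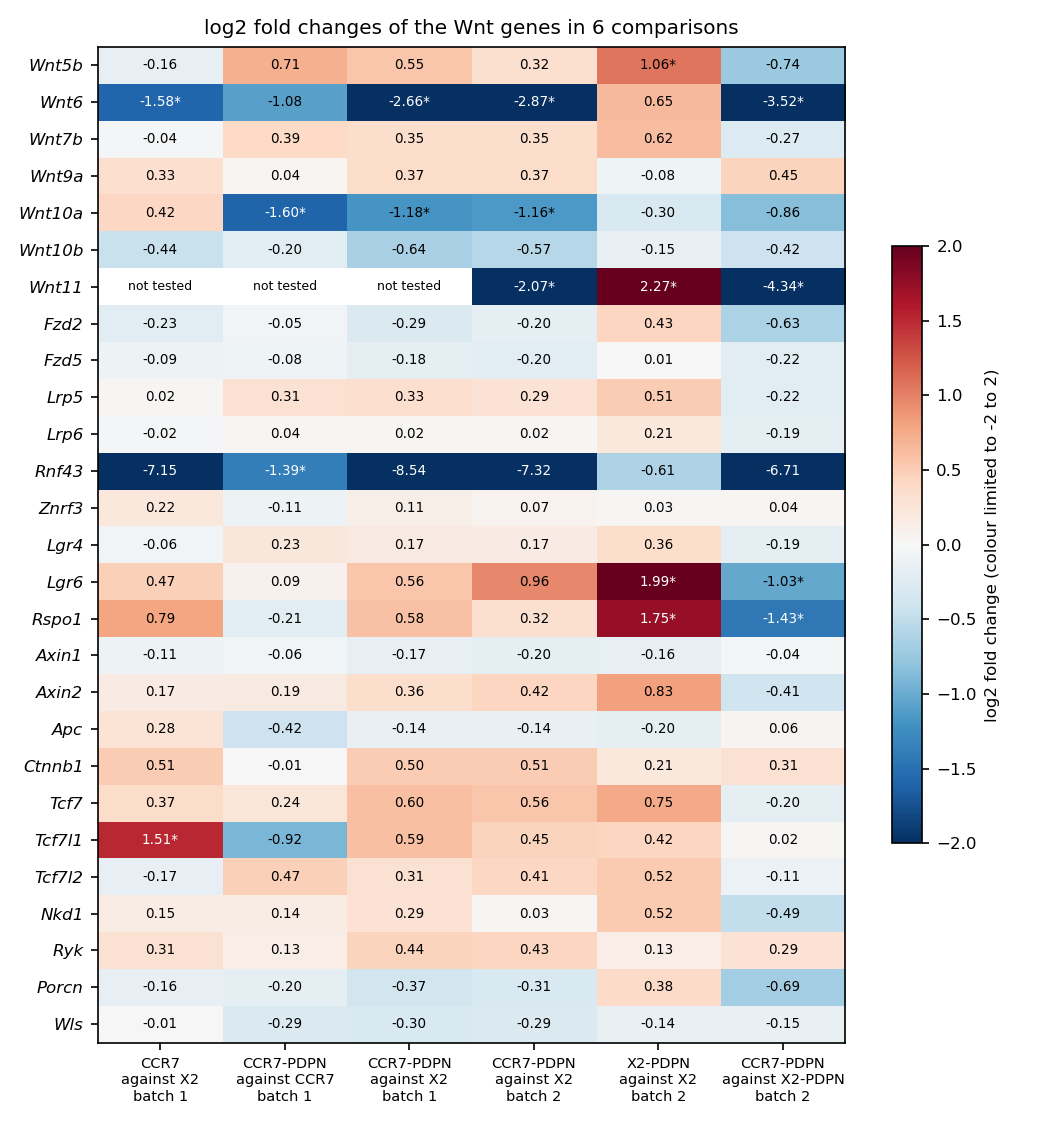
log2 fold changes of the 27 Wnt genes (rows, by role) in the 6 comparisons within a batch, coloured from -2 to 2. Asterisks mark genes past both thresholds, with none given for Rnf43 in the 4 comparisons it was chosen for, and the column of X2-PDPN against X2 is mostly positive while that of CCR7-PDPN against X2-PDPN is mostly negative.

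By adjusted p alone, without the fold change threshold, 18 of the 27 Wnt genes rose and 5 fell in X2-PDPN against X2, where 28.2% of all genes rose and 28.5% fell. The median log2 fold change of the 27 was 0.38 against 0.00 over all genes. In CCR7-PDPN against X2-PDPN 3 rose and 19 fell (31.2% and 32% of all genes), with a median of -0.22. Both comparisons use the same X2-PDPN libraries, and 1 of the 19 is Rnf43. Wnt11, kept by the low count filter through X2-PDPN, is among the 18 and among the 19. In CCR7 against X2 7 of 26 rose and 5 fell (24% and 25.2% of all genes), and in CCR7-PDPN against CCR7 7 rose and 7 fell (20.9% and 20.7%). In CCR7-PDPN against X2 11 rose and 8 fell in batch 1 (30.3% and 30.6%), and 10 rose and 11 fell in batch 2 (32% and 32.8%). The shares of Wnt genes in the last 4 comparisons lay between 19.2% and 42.3% in each direction. Rnf43 is among those that fell in CCR7 against X2 and in CCR7-PDPN against X2 of both batches, by the choice of the genes. Wnt11 is among those that fell in CCR7-PDPN against X2 of batch 2.

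A change of the PDPN difference with CCR7 was tested as CCR7-PDPN minus CCR7 in batch 1 less X2-PDPN minus X2 in batch 2, which sets cells of 1 batch against those of the other. Of 27 Wnt genes 6 were called, all lower, where 5.44% of 13690 genes were called in either direction. Wnt11 (-3.53) is given as a description, since it was kept by the filter through X2-PDPN and had 1 to 8 counts per library in batch 1. The others were Rspo1 (-1.96, adjusted p = 0.00043, edgeR), Lgr6 (-1.89, 3.1e-05), Wnt6 (-1.72), Tcf7l1 (-1.33, 1.4e-17) and Wnt10a (-1.30, 0.015). Wnt6 was kept by the filter through the groups without CCR7, in which it was high, so its call is a description as well. Its value was -1.37 without replicate 1 of CCR7, which did not pass (adjusted p = 0.077, edgeR). Under the fold change threshold Axin2 (-0.64), Tcf7 (-0.51) and Fzd2 (-0.48) also passed (adjusted p = 0.00049, 5.2e-06 and 0.00021, edgeR), and Wnt7b did at -0.22 (adjusted p = 0.00038).

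Of 64 further genes of the pathway 42 were tested, and 1 to 5 of them were called in a comparison, where 3.27% to 9.63% of all genes were. Apcdd1, a membrane inhibitor of Wnt signals and itself a target gene, was the one called in the same comparisons as Rnf43. It had 51 to 63 counts per library in X2 of batch 1, between 8 and 17 in CCR7 and between 4 and 7 in CCR7-PDPN. In batch 2 it had 48 to 63 counts in X2, 28 to 52 in X2-PDPN and 2 to 7 in CCR7-PDPN. CCR7 cells had a log2 fold change of -2.32 from X2 (adjusted p = 5.5e-09, edgeR). CCR7-PDPN cells lay at -1.23 from CCR7, at -3.56 and -3.75 from X2 of batches 1 and 2, and at -3.06 from X2-PDPN. These CCR7-PDPN values are a description, since the low count filter kept Apcdd1 through the other groups, in which it was higher. Between X2-PDPN and X2 Apcdd1 differed by -0.69 (adjusted p = 0.001, edgeR). All its group means lay under 1 TPM. Rhou, a small GTPase gene induced by Wnt, was far higher, with 186 ± 1.79 TPM in X2-PDPN, 235.5 ± 6.755 TPM in X2 and 430.5 ± 4.785 TPM in CCR7-PDPN of batch 2, and it rose by 1.24 in CCR7-PDPN against X2-PDPN (adjusted p = 7.7e-36, edgeR). The planar polarity genes Prickle2 and Celsr2 were lower in that comparison, at -1.23 and -2.25 (adjusted p = 1.1e-23 and 5.2e-12, edgeR), as was Reck, a membrane protein that takes part in the reception of Wnt7 ligands, at -1.195 (adjusted p = 0.00072). Celsr2 was higher in X2-PDPN against X2 by 1.595 (adjusted p = 4e-09, edgeR). Against X2, Prickle1 was lower in CCR7-PDPN of both batches, at -1.66 and -1.53 (adjusted p = 2.5e-08 and 5.9e-10, edgeR). Wnt2b was higher than in X2 of batch 1 by 1.32 in CCR7 and by 1.69 in CCR7-PDPN. These values are a description, since that X2 group had 4 to 13 counts per library and the low count filter kept Wnt2b through the other groups. In CCR7-PDPN against X2 of batch 2 it was 0.85 and not called. All group means of Wnt2b lay under 1 TPM. The casein kinase gene Csnk1g1 was higher in CCR7-PDPN than in X2 by 1.01 and 1.04 (adjusted p = 3.4e-14 and 4.3e-24, edgeR). The genes around Rhou and Csnk1g1 were not examined, and their part in these 2 rises was not tested.

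Of 22 known beta-catenin targets outside the 50 genes 12 were tested in batch 1 and 11 in batch 2. By adjusted p 4 rose and 5 fell in CCR7 against X2 (24% and 25.2% of all genes), 4 rose and 6 fell in CCR7-PDPN against CCR7 (20.9% and 20.7%), and 7 rose and 3 fell in X2-PDPN against X2 (28.2% and 28.5%). In CCR7-PDPN against X2 3 rose and 7 fell in batch 1 (30.3% and 30.6%) and 3 rose and 6 fell in batch 2 (32% and 32.8%), and against X2-PDPN 3 rose and 7 fell (31.2% and 32%). Ephb3, an ephrin receptor gene, had 29 to 39 counts per library in X2 of batch 1, between 2 and 11 in CCR7 and at most 2 in CCR7-PDPN. In batch 2 it had 22 to 49 counts in X2, overlapping the 40 to 70 of X2-PDPN, and 2 or 3 in CCR7-PDPN. CCR7 cells had a log2 fold change of -2.16 from X2, a description, since the low count filter kept Ephb3 in batch 1 through X2, where it was high. Its summed counts in CCR7-PDPN of batch 2 were 4.97% of those in X2-PDPN (counting interval 2.35% to 9.31%). Ccn5, a secreted matrix protein gene, was below X2 in CCR7-PDPN cells of both batches, at -1.46 and -1.20 (adjusted p = 3.0e-08 and 3.4e-11, edgeR). Ephb2, another ephrin receptor gene, went the other way in CCR7, with 12 to 27 counts per library there against 6 to 9 in X2 and 5 to 14 in CCR7-PDPN of batch 1. Its log2 fold changes were 1.42 in CCR7 against X2 and -1.22 in CCR7-PDPN against CCR7, a description at these counts, and it did not pass the filter in batch 2.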

How the data were processed

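Stranded TruSeq mRNA libraries of EO771 derivatives were sequenced in single-end mode (75 bp) and mapped to GRCm38 (mm10). The authors deposited raw counts for Ensembl genes in 1 table per batch, neither normalized nor pooled. The batch 2 table lists 13915 of the 55471 genes of batch 1, all reaching 10 counts somewhere, by a rule not given in the sources used here. Genes were matched by Ensembl ID. Of the 50 Wnt genes, 49 have the same start and end in GENCODE M21, with Tcf7 the exception.

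From the deposited counts TPM was computed over the exonic lengths in the files, within each table. Counts were tested with edgeR 4.0.16 (R 4.3.3): TMM factors (0.985 to 1.02), the filterByExpr filter, quasi-likelihood fits (robust) of the 3 groups in a batch, and Benjamini-Hochberg adjustment over 13261 genes in batch 1 and 13314 in batch 2. The difference of differences was fitted over 6 groups and 13690 genes. Standard errors were derived from the fold change and the F statistic, and intervals of fold changes are normal approximations. Counting intervals are exact binomial (Clopper-Pearson, 95%), and PCR copies are not independent molecules, so they cover counting error only. DESeq2 1.42.0 served as an alternative, among others. Scripts were tested on simulated data.

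Named genes were Rnf43, Wnt7b, each Wnt gene called in at least 1 of 6 comparisons and the highest gene of each role. Other Wnt genes are described where their role is treated, and the changes of Tcf7l2 and Porcn appear in the plots only. Of the other lists the genes called were named, at most 8 by size of change. The members and lists were chosen with earlier results of these data known. A single one of the listed immune markers is not reported here and is left out of the marker sum. Library pairs within a group differed by more than sampling noise (chi-square per degree of freedom 1.99 to 20.4 in 36 pairs). Replicate numbers did not pair the libraries: the correlation of same-numbered deviations lay between -0.12 and 0.11.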

Additional observations from a re-analysis of the deposited data

Results flagged for a closer look

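In 3 of 54 groups of 4 libraries checked for the 9 genes given by library, 1 library lay far from the other 3 (Dixon's test at 95%, which chance passes in about 1 group in 20). They were the lowest Wnt7b library of X2 in batch 1 (111 TPM), the lowest Rspo1 library of CCR7-PDPN in batch 2 (0.335 TPM) and the highest Tcf7l1 library of X2 in batch 1 (18.1 TPM).

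The PDPN difference differed between cells with and without CCR7, by the test of the difference itself, for 5 genes. On the log2 scale the difference was -1.96 for Rspo1, -1.89 for Lgr6, -1.72 for Wnt6, -1.33 for Tcf7l1 and -1.30 for Wnt10a. Batch and presence of CCR7 cannot be told apart in this contrast. For Wnt11 the value was -3.53, given as a description, since this gene was kept by the filter on low counts through X2-PDPN, where it was high. The Wnt6 value of -1.72 is a description too, since the filter kept Wnt6 through the groups without CCR7. Without replicate 1 of CCR7 it was -1.37 and did not pass (adjusted p = 0.077, edgeR).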

How the results depend on the processing

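Without the fold change threshold the numbers of Wnt genes called were 12 (CCR7 against X2), 14 (CCR7-PDPN against CCR7), 19 and 21 (CCR7-PDPN against X2, batches 1 and 2), 23 (X2-PDPN against X2), 22 (CCR7-PDPN against X2-PDPN) and 16 (difference of differences). For CCR7-PDPN against CCR7 the number was 1 in place of 2 with no filter on low counts, and also in a fit of those groups alone, where Rnf43 fell under the filter. Counting only genes with a mean of at least 1 TPM in a group compared, a setting chosen after seeing the data, gave 1 for that comparison and 2 for CCR7-PDPN against X2 in batch 2. The other 51 counts stayed within 1.5 times the main count, among them those with the window median of 5 Mb subtracted, also chosen after seeing the data.

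With single libraries left out the numbers ranged over 3 to 3 (CCR7 against X2), 1 to 3 (CCR7-PDPN against CCR7), 2 to 3 and 3 to 5 (CCR7-PDPN against X2), 3 to 4 (X2-PDPN against X2), 4 to 6 (CCR7-PDPN against X2-PDPN) and 5 to 6 (difference of differences). Of the log2 fold changes recomputed under all settings none was reversed. With a replicate block the 7 numbers were 3, 2, 3, 4, 4, 5 and 6, as without it, and no other call changed. Levels under about 10 counts a library limit what can be said of Rnf43 and Wnt6 within cells with CCR7 and of Wnt11 outside X2-PDPN.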
